A study of Mus musculus with 96 samples.

Results

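Foxa2 and Sox9, a pair of transcription factor genes known for their place in uterine glands, were measured among 96 assays in single cells of the neonatal mouse uterus. They were taken by name as the assays foxa2 and sox9, so that the members are 2 of 96 assays, read over all 96 cells. The cells form 1 group. Uteri of mice at postnatal day 7 were dissociated with type I collagenase, and cells were sorted singly for surface CD326 (EpCAM, an epithelial adhesion molecule). Each was preamplified and run by quantitative PCR on a microfluidic chip, and no treatment, genotype, strain or animal is named in the labels.

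Foxa2 encodes a forkhead factor that marks the glandular epithelium of the mouse uterus and is required there for glands to form. Sox9 encodes an HMG-box factor that acts in progenitor cells and glandular epithelia of several organs, among them the intestinal crypt, where WNT signaling sustains it. In the mouse uterus, glands bud from the luminal epithelium during the first weeks after birth, so that the sampled age lies early in that process. In RefSeq, Foxa2 (gene 15376, chromosome 2) and Sox9 (gene 20682, chromosome 11) are both protein-coding. The sources used here do not give the primers, so the exon each assay reads is not known.

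Each value is a threshold cycle (Ct), and less cycling, a lower Ct, means more template at the start. Detection meant a Ct below 28, and the level of a detected gene is given as 28 minus Ct, a log2 scale if each cycle doubles the product. Between 9 and 78 of the 96 assays were detected per cell, with a median of 54. Gapdh, the reference gene, was late (Ct above 18) or undetected in 8 cells, and 1 of these, cell 67, had no Ct in any assay before position 72 of the table. Foxa2 stands at position 28 and Sox9 at position 47, so both are unmeasured rather than undetected there. Cell 67 is still counted below among the cells without either gene. Leaving it out gave shares of 40.0% for Sox9 and 7.37% for Foxa2, of 95 cells. The whole set of cells is 1 sample, because cells are not replicates. No test between groups was therefore possible, and exact (Clopper-Pearson) 95% intervals on shares cover counting error only. Cells detected a median of 6 of 6 simple epithelial markers both with Sox9 and without it, but 22 of the 96 had no Epcam Ct below 28. Markers of other cell types were common too, with Pecam1 detected in 93 cells and Ptprc in 57. Of 11 endothelial, stromal and immune markers, a median of 6 was detected with Sox9 and 5 without it. The markers therefore do not settle the labelled epithelial identity.

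Sox9 was found in a large minority of cells and Foxa2 in few. Sox9 was detected in 38 of 96 cells (39.6%, interval 29.7 to 50.1%) and Foxa2 in 7 of 96 (7.29%, interval 2.98 to 14.4%), and these intervals do not overlap. In the order of shares 59 assays were detected in more cells than Sox9, and 87 in more than Foxa2. The nearest neighbors of Sox9 were Prom1, a membrane glycoprotein gene used as a progenitor marker, also at 38 cells, Emx2 and Wnt5a at 40 cells each, and Hopx and Hoxa13 at 36 cells each. Those of Foxa2 were Ngfr, Pou5f1 and Vim, each also at 7 cells. None of these neighbors differed from the member by more than its counting interval.

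Both genes were detected at modest levels. The 38 Sox9 values ran from a Ct of 18.8 in cell 23 through a median of 23.3 to 27.8 in cell 22, and 6 of them were at 26 or above. The mean Sox9 level was 4.51 ± 2.13 (SD, n = 38 cells), and 86 of the 94 assays found in at least 5 cells had a higher mean level. The 7 Foxa2 values were a Ct of 19.2 in cell 60, 20.3 in cell 45, 21.1 in cell 91, 22.5 in cell 84, 25.0 in cell 89, 25.1 in cell 50 and 25.5 in cell 82. They left a gap of more than 2 cycles between the 4 earlier and the 3 later values, and their mean level was 5.32 ± 2.58 (SD, n = 7 cells). The 4 earlier values came from the 48 cells with the earlier Gapdh Ct, at a level of 7.22 ± 1.40. The 3 later ones came from the other 48 cells, at 2.78 ± 0.26. Taken relative to Gapdh in the same cell, the Foxa2 level had an SD of 1.44. The part of Gapdh in the gap was not tested. No recorded Ct of either gene lay at 28 or above, so the detection limit removed none. Levels of different assays compare only in rough order, since amplification efficiency is not known.

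Sox9 was detected more often in cells that detected more of the other assays, whereas Foxa2 showed no such order. With the cells split in 3 equal strata by how many other assays they detected, Sox9 was found in 7 of 32 cells of the lowest stratum (21.9%, interval 9.28 to 40.0%), 12 of 32 of the middle stratum (37.5%, interval 21.1 to 56.3%) and 19 of 32 of the highest stratum (59.4%, interval 40.6 to 76.3%). Foxa2 was found in 1, 5 and 1 of 32. Cells with Sox9 detected a median of 57.5 assays and cells without it 50. Cells with Foxa2 detected a median of 55 assays and cells without it 53. Gapdh gave the same order: in the 48 cells with the earlier Gapdh Ct, Sox9 was found in 26 and Foxa2 in 4, and in the other 48 cells Sox9 was found in 12 and Foxa2 in 3. The Sox9 level also went with depth across its 38 cells, with a Spearman rho of 0.54 and a Pearson r of 0.44 to the number of assays detected, and r was 0.42 without the 2 cells farthest from the median level. No p is given for any correlation over cells, which share the chip, the preamplification and depth. Sox9 was also found in 33 of 74 cells with Epcam (44.6%, interval 33.0 to 56.6%) and in 5 of 22 without it (22.7%, interval 7.82 to 45.4%), and Foxa2 in 4 of 74 and 3 of 22. The part of depth in the share of Sox9 was not tested.

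**Figure D1:**
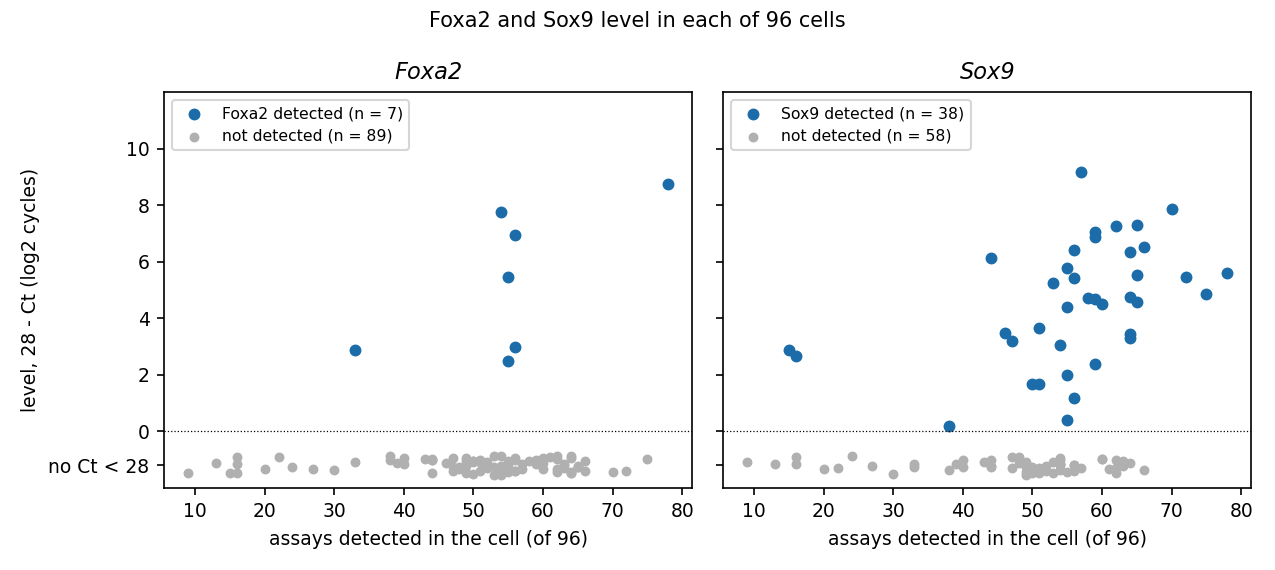
Level (28 minus Ct, log2 cycles, vertical axis) of Foxa2 (left) and Sox9 (right) against the number of assays detected in the cell (horizontal axis), 1 point per cell; gray points are cells with no Ct below 28, spread vertically only for visibility. The 38 cells with Sox9 lie mostly at 50 or more assays, and 5 of the 7 cells with Foxa2 lie between 54 and 56 assays.

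**Figure D2:**
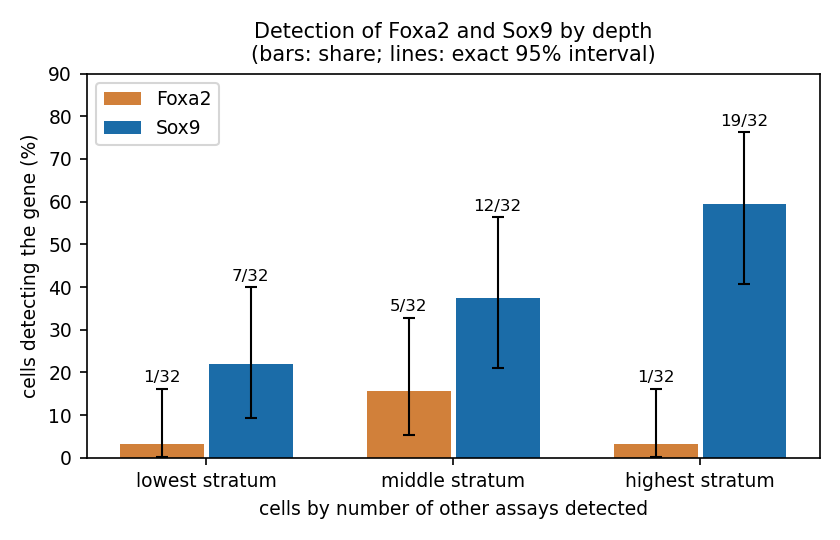
Share of cells (%, vertical axis) that detected Foxa2 (orange) and Sox9 (blue) in strata of the 96 cells by the number of other assays detected, with exact 95% intervals as lines and the counts above them. Sox9 goes up from 7 to 19 of 32 cells across the strata, while Foxa2 has 1, 5 and 1.

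The 2 genes were detected together in 3 cells (60, 84 and 91), against 35 cells with Sox9 alone, 4 with Foxa2 alone and 54 with neither. Sox9 was detected in 3 of the 7 cells with Foxa2 (42.9%, interval 9.90 to 81.6%) and in 35 of the 89 cells without it (39.3%, interval 29.1 to 50.3%). Set the other way, Foxa2 was detected in 3 of the 38 cells with Sox9 (7.89%, interval 1.66 to 21.4%) and in 4 of the 58 without it (6.90%, interval 1.91 to 16.7%). The shares within each pair lie well inside each other's intervals. With a Ct limit of 24, Foxa2 was left in 4 cells and Sox9 in 23, and 3 cells still held both. Sox9 was then found in 3 of the 4 cells with Foxa2, cell 45 being the exception. The Foxa2 cells lost at that limit, cells 50, 82 and 89, had no Sox9. The share of Foxa2 cells with Sox9 thus moved with the Ct limit, and no interval was computed for it at 24. With 7 Foxa2 cells, neither a shared nor a separate cell population was detectable at this number of cells. In the 3 cells with both, the Foxa2 Ct was earlier than the Sox9 Ct each time: 19.2 against 22.4 in cell 60, 22.5 against 23.6 in cell 84 and 21.1 against 22.6 in cell 91.

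To relate Sox9 to every other assay, its share in the 38 cells with Sox9 was set against that in the 58 cells without it. Most plain differences were positive, and depth moved with them: the median over the 75 other assays detected in 10% to 90% of cells was 10.6 percentage points, and 64 of the 75 lay above 0. The difference was therefore taken within the strata of depth and averaged with Mantel-Haenszel weights. That brought the median to 1.96 points, with 46 assays above 0 and 29 below. A stratified difference of at least 20 points higher with Sox9 was reached by 2 of the 75 assays (2.67%), and of at least 20 points lower by 0 of 75 (0%). Without the strata, 12 of the 75 (16%) were at least 20 points higher.

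The 2 assays past 20 points were Lgr5 and Pgr. Lgr5, an R-spondin receptor gene that marks WNT-dependent stem cells in intestine and other epithelia, was detected in 14 of 38 cells with Sox9 (36.8%, interval 21.8 to 54.0%) and in 6 of 58 without it (10.3%, interval 3.89 to 21.2%). The stratified difference was 22.1 points. It was positive in each stratum of depth, at 6.29, 23.3 and 32.0 points from the lowest stratum to the highest. The value of the lowest stratum rests on 1 of 7 cells with Sox9 and 2 of 25 without it. Read from the side of Lgr5, Sox9 was found in 14 of the 20 cells with Lgr5 (70.0%, interval 45.7 to 88.1%) and in 24 of the 76 without it (31.6%, interval 21.4 to 43.3%). Over the alternatives run the difference stayed between 15.3 points, in cells with all 3 reference genes, and 43.1 points, with a Ct limit of 24.

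Pgr, the progesterone receptor gene (read from an assay named pr), was detected in 29 of 38 cells with Sox9 (76.3%, interval 59.8 to 88.6%) and in 26 of 58 without it (44.8%, interval 31.7 to 58.5%), a stratified difference of 21.7 points. Its difference was uneven across depth. It was 15.4 points in the lowest stratum, 53.0 points in the middle stratum (11 of 13 cells with Sox9, 6 of 19 without) and -5.67 points in the highest stratum. It was 10.3 points with a Ct limit of 26 and -12.8 points with a limit of 24. Both Lgr5 and Pgr, counted together after the values were seen, were found in 13 of the 38 cells with Sox9 (34.2%, interval 19.6 to 51.4%) and in 4 of the 58 without it (6.90%, interval 1.91 to 16.7%). The pair was chosen for its high differences with Sox9 in these same cells, and its count was not stratified by depth.

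Below that threshold the next differences were those of Cd9, Sox2, Tdgf1, Prom1 and Fzd10. Cd9, a tetraspanin gene, was detected in 36 of 38 cells with Sox9 and 41 of 58 without (stratified difference 18.1 points), but -1.27 points in the cells that detected Epcam. Sox2, an HMG-box pluripotency and progenitor factor gene, was detected in 15 cells with Sox9 and 11 without (18.0 points, and 6.65 with a Ct limit of 24). Tdgf1, which encodes the Nodal co-receptor Cripto, followed with 33 and 34 cells (17.8 points, and 7.64 with a Ct limit of 26). Prom1 was detected in 21 and 17 cells (15.7 points) and the WNT receptor gene Fzd10 in 17 and 12 (14.7 points). Prom1 differed most in the deepest cells, at 16 of 19 with Sox9 and 5 of 13 without in the highest stratum, against 1 of 7 and 6 of 25 in the lowest.

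On the other side, Kit, the stem cell factor receptor gene, had the most negative difference. It was detected in 28 of 38 cells with Sox9 (73.7%, interval 56.9 to 86.6%) and in 53 of 58 without it (91.4%, interval 81.0 to 97.1%). The stratified difference was -18.7 points and negative in each stratum, at -16.6, -8.66 and -30.0 points, but -0.71 points with a Ct limit of 24. Eng, which encodes the TGF-beta co-receptor endoglin of endothelium, was detected in 2 of 38 cells with Sox9 and 11 of 58 without (-15.9 points, and -6.31 in the cells that detected Epcam). Tbx3, a T-box factor gene, was detected in 7 and 15 cells (-13.6 points), Fzd9 in 11 and 19 (-13.0 points), and Hoxa10 in 3 and 8 and Itga2 in 7 and 13 (-11.3 points each).

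**Figure D3:**
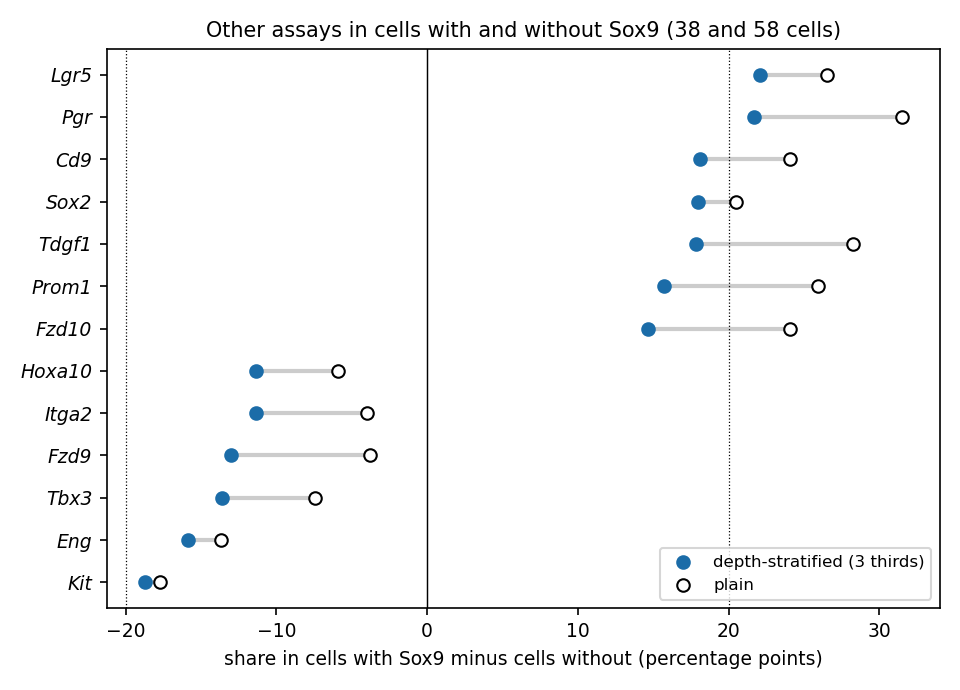
Share of cells detecting each gene in cells with Sox9 minus cells without it (percentage points, horizontal axis), for 7 of the 8 assays with the highest and the 6 with the lowest depth-stratified difference; filled points are stratified, open points plain, and dotted lines mark 20 points either way. Lgr5 and Pgr are the filled points past 20, and Kit is the lowest at -18.7.

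By likeness of detection over the 96 cells (the Jaccard index, the cells with both genes over the cells with either), the 5 assays nearest to Sox9 were Tdgf1 (0.46), Cd9 (0.46), Pgr (0.45), Cd44 (0.44) and, tied at 0.43, Cd40 and Itga6. Gapdh, present in 95 cells, had 0.40, so these values stand close to that of a gene found nearly everywhere. Lgr5 had 0.32.

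The gene lists were counted against the 2.67% and 0% of all 75 assays. Of the other gland genes, 4 of 5 were in the 10% to 90% band and 1 passed 20 points, with a median of 12.5 points against 1.96 over all assays. They were Lgr5, Aldh1a1 (a retinaldehyde dehydrogenase gene, in 9 cells with Sox9 and 5 without, 13.3 points), Cdh1 (E-cadherin, in 37 and 48 cells, 11.6 points) and Wnt7a (a WNT ligand gene of the uterine epithelium, in 24 and 28 cells, 1.81 points). For Wnt7a the sign differed with depth, at -21.7 points in the lowest stratum, -13.3 in the middle and 33.2 in the highest, where 18 of 19 cells with Sox9 and 8 of 13 without it detected it. Of the WNT and R-spondin genes, 1 of 10 passed and the median was 4.93 points, with Lgr5 at the top and Fzd9 at the bottom.

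Of the stem and progenitor genes, 1 of 14 passed (Lgr5 again), 12 of 14 lay above 0 and the median was 8.54 points, with Hopx lowest at -5.14 points. Of the Müllerian and luminal patterning genes, 0 of 7 passed and the median was 0.45 points, from Pax2 at 12.6 to Tbx3 at -13.6. The steroid and growth factor receptors had 1 of 6 past the threshold and a median of -3.42 points, from Pgr at 21.7 to Kit at -18.7. Mki67, the proliferation marker gene, had 13 of 38 cells with Sox9 and 16 of 58 without, a stratified difference of -1.81 points. Of 2 simple epithelial markers in the band, both lay above 0 (Cdh1 at 11.6 and Epcam at 7.38 points). Krt15, the only basal marker in the band, was at 13.9 points.

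Markers of other cell types were counted in the same way. Of the endothelial, stromal and immune lists 0 of 9 assays in the band passed 20 points in either direction, near the 2.67% and 0% of all assays, with medians of -5.53, -1.59 and -5.88 points. Of the 11 markers on these lists, the median cell with Sox9 detected 6 (range 0 to 8, summed level 0 to 75.6) and the median cell without it 5 (range 1 to 10, summed level 10.6 to 89.7). Among cells with Sox9, Eng was detected in 2 of 38 and vimentin (Vim), a filament gene of mesenchyme, in 1 of 38, whereas Pecam1 was detected in 36 of 38 and Ptprc (CD45) in 25 of 38. Their part in the results was not tested.

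Genes found in nearly every cell can differ only in level, and these were compared after the detection counts had been seen. Of 72 assays detected in at least 10 cells on each side, leaving out Gapdh, 65 had a higher mean level in cells with Sox9, and the median difference was 0.84 on the log2 scale. Relative to Gapdh in the same cell the median was -0.26, and 24 of 72 were above 0. Epcam had a level of 8.38 ± 2.61 in cells with Sox9 (SD, n = 33) and 6.33 ± 2.12 without it (n = 41), and was still 1.10 higher relative to Gapdh. Krt18, a simple epithelial keratin gene, had 13.25 ± 3.02 with Sox9 (n = 36) and 11.38 ± 3.09 without (n = 55), or 0.77 higher relative to Gapdh. Lrig1, an epithelial stem cell marker gene, had the highest difference, 7.37 ± 1.39 with Sox9 (n = 10) and 4.28 ± 2.17 without (n = 14), or 0.92 relative to Gapdh. Hoxa11 had the lowest, 3.77 ± 2.62 with Sox9 (n = 11) and 4.75 ± 4.21 without (n = 18), a difference smaller than the spread of either set. The differences in level of Epcam (2.05) and Krt18 (1.88) were also smaller than the spread of either of their sets. Set against Gapdh, Hoxa11 was at -1.61, and the lowest was Pecam1 at -2.02 (n = 36 and 57). Both are larger in size than the 1.10 of Epcam.

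Within the 38 cells that detected Sox9, its own level was compared by whether a partner was detected too. It averaged 5.87 ± 1.91 in the 14 Sox9 cells with Lgr5 (lowest 1.68, median 6.28, highest 9.17) and 3.72 ± 1.87 in the 24 without it (lowest 0.18, median 3.56, highest 7.30). The 2 sets overlap widely, but the cell with the highest Sox9 level, cell 23, detected Lgr5. With Pax2, a paired-box gene of the Müllerian duct, the Sox9 level was 5.41 ± 1.97 (n = 23) and without it 3.14 ± 1.62 (n = 15). With Aldh1a1 it was 5.99 ± 2.32 (n = 9) and without it 4.05 ± 1.89 (n = 29), and with Pgr it was 4.78 ± 2.20 (n = 29) and without it 3.63 ± 1.72 (n = 9). Depth moves with these contrasts. In the highest stratum of depth alone the Sox9 level was 5.95 ± 1.51 with Lgr5 (n = 9) and 4.94 ± 1.40 without it (n = 10). The other contrasts kept their sign there too. With Aldh1a1 the level was 6.57 ± 1.17 (n = 6) and without it 4.89 ± 1.37 (n = 13). With Pax2 it was 5.71 ± 1.28 (n = 17) and without it 2.91 ± 0.76 (n = 2). With Pgr it was 5.65 ± 1.57 (n = 15) and without it 4.55 ± 0.92 (n = 4). Set against Gapdh in the same cell, the Sox9 level was -9.89 with Lgr5 and -11.2 without it, so that this contrast kept its sign. With Aldh1a1 it was -10.63 and without it -10.77, close to equal. With Pax2 it was -10.9 and without it -10.6, and with Pgr it was -10.8 and without it -10.5, so that both of these contrasts changed sign on that scale.

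**Figure D4:**
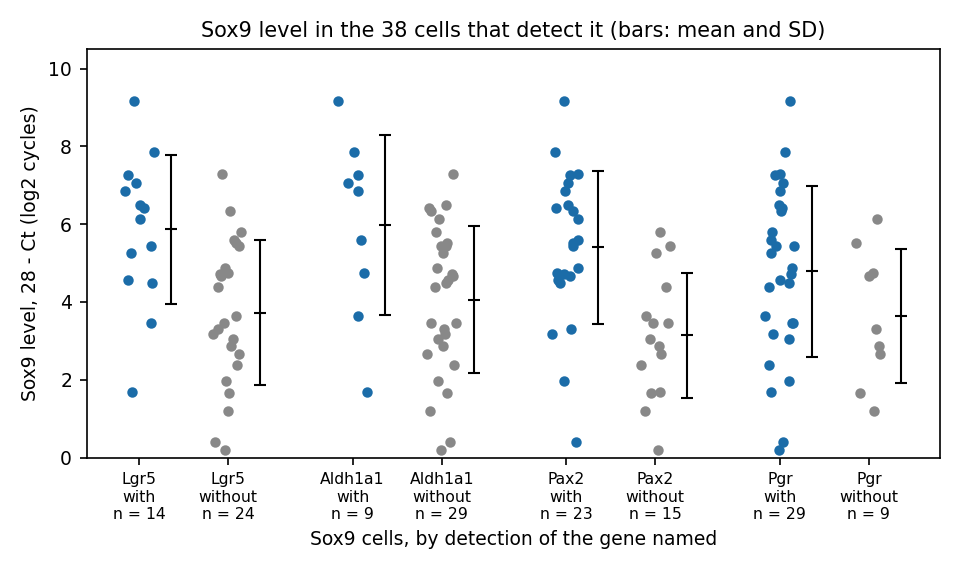
Sox9 level (28 minus Ct, log2 cycles, vertical axis) in each of the 38 cells that detected it, split by whether the cell also detected Lgr5, Aldh1a1, Pax2 or Pgr (blue with, gray without), with the mean and SD beside the points. The 14 cells with Lgr5 average 5.87 and the 24 without it 3.72, with wide overlap.

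The Sox9 level was also set against the level of each other gene across cells that detected both. Of 66 assays with 15 to 38 such cells, the median Spearman rho was 0.39, with 17 at 0.5 or above and 5 below 0, so a positive value is the rule here. The highest were Emx2, a homeobox gene of the urogenital tract (rho = 0.75, Pearson r = 0.66, 21 cells), Fzd10 (0.74 and 0.67, 17 cells) and Msi1, an RNA-binding progenitor gene (0.65 and 0.62, 27 cells). Fut4 (0.64 and 0.59, 16 cells) and Pax2 (0.62 and 0.59, 23 cells) came next. Without the 2 cells farthest from the median Sox9 level, r for these 5 lay between 0.51 and 0.67. Relative to Gapdh, rho was 0.42 for Emx2, 0.38 for Fzd10, 0.46 for Msi1, 0.46 for Fut4 and 0.52 for Pax2. The lowest were sma (rho = -0.11), Pecam1 (-0.10) and h2b (-0.06), and relative to Gapdh the values were -0.0018 for sma, 0.24 for Pecam1 and 0.19 for h2b. The level of Pgr had a rho of 0.03 with that of Sox9 (29 cells).

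The 7 cells with Foxa2 detected simple epithelial keratins, as most cells did, and only cell 60 among them detected Hprt or Wnt7a. All 7 detected Krt8, Krt18, Krt19 (found in 87, 91 and 93 of the 96 cells), Esr1 (estrogen receptor alpha, read from an assay named er) and Gapdh, and 6 of 7 detected Cdh1, with cell 82 the exception. Epcam was detected in 4 of 7 (57.1%, interval 18.4 to 90.1%), against 70 of the 89 cells without Foxa2 (78.7%, interval 68.7 to 86.6%). Cells 45, 50 and 84 had no Epcam Ct below 28, although they were sorted for its protein. Of the 6 simple epithelial markers, the median cell with Foxa2 detected 5 (range 5 to 6, median summed level 44.2) and the median cell without it 6 (range 1 to 6, median summed level 56.9). Both markers in the band were below 0, Cdh1 at -2.54 and Epcam at -19.3 points. The others, outside the band, were above 0: Cd24a at 8.63, Krt8 at 6.60, Krt18 at 2.54 and Krt19 at 1.52 points. Krt15, the only basal marker in the band, was detected in 6 of 7 cells with Foxa2 and 50 of 89 without (28.4 points). Trp63, a basal marker outside the band, was at -5.08 points. None of the 7 was among the cells with late Gapdh, and their Gapdh Ct ran from 9.43 in cell 60 to 15.6 in cell 50.

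The most negative difference with Foxa2 was that of Hprt, a purine salvage gene used as a reference. It was detected in 1 of 7 cells with Foxa2 (14.3%, interval 0.36 to 57.9%), cell 60, and in 63 of 89 without it (70.8%, interval 60.2 to 79.9%), a depth-stratified difference of -58.6 points. Hopx, a homeodomain-only factor gene, was detected in 0 of 7 cells with Foxa2 (exact interval 0 to 41.0%) and 36 of 89 without it (-46.7 points). Wnt7a was detected in 1 of 7 cells with Foxa2, again cell 60, and in 51 of 89 without it (57.3%, interval 46.4 to 67.7%), a difference of -46.3 points. Insr, the insulin receptor gene, was detected in 2 of 7 and 54 of 89 (-36.9 points) and Cd55, a complement regulator gene, in 3 of 7 and 58 of 89 (-24.9 points). All 3 of Hprt, Wnt7a and Hopx were missing in 6 of the 7 cells with Foxa2 (85.7%, interval 42.1 to 99.6%) and in 20 of the 89 without it (22.5%, interval 14.3 to 32.6%). This count was made after the values were seen. The 3 genes are those with the most negative differences with Foxa2 in these same cells, so the choice itself favors such a gap.

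The 5 highest stratified differences with Foxa2 were those of Mcam, h2b, Tbx3, Enpep and Cd34. None of them is on the gland list, but that list held only 5 of the 76 assays in the band. Mcam, an adhesion molecule gene of endothelium and stroma, was detected in 4 of 7 cells with Foxa2 (57.1%, interval 18.4 to 90.1%) and 11 of 89 without it (12.4%, interval 6.33 to 21.0%), a stratified difference of 47.2 points. The assay h2b was detected in 6 of 7 and 38 of 89 (40.6 points), Tbx3 in 4 of 7 and 18 of 89 (37.6 points), the aminopeptidase gene Enpep in 7 of 7 and 55 of 89 (35.5 points, and 5.00 where all reference genes were detected, with 1 cell with Foxa2 left) and Cd34, an endothelial and progenitor glycoprotein gene, in 6 of 7 and 43 of 89 (34.0 points). The highest Jaccard indices with Foxa2 were those of Mcam (0.22), Tbx3 (0.16) and Itga1 (0.15). Of the 76 assays in the band, 14 (18.4%) were at least 20 points higher with Foxa2 and 9 (11.8%) at least 20 points lower. Among 7 cells, 1 cell moves a share by 14.3 points.

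Mcam and Tbx3 were both detected in 3 of the 7 Foxa2 cells (42.9%, interval 9.90 to 81.6%), cells 45, 60 and 82, and in 2 of the 89 others (2.25%, interval 0.27 to 7.88%), a pair chosen after the values were seen for its high differences with Foxa2. Cells 45 and 82 were also 2 of the 8 cells in which Itga1 was detected. Cell 82 had the latest Foxa2 Ct of the 7, at 25.5, and the earliest Mcam and Tbx3 values, at 18.1 and 17.8. It also had Vim at 25.5 and no Cdh1. Cell 60, the deepest cell of the series with 78 assays, had the earliest Foxa2 Ct and detected Sox9, Epcam, Wnt7a, Aldh1a1 and Pgr as well. Cell 91 detected Epcam, Cdh1, Sox9 and Pgr but neither Mcam nor Tbx3.

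Of the other gland genes, 5 were in the band. In cells with Foxa2, 0 of the 5 were at least 20 points higher, against 18.4% of all assays, and 2 of the 5, Wnt7a and Lgr5, at least 20 points lower, against 11.8%. Lgr5 was detected in 0 of 7 cells with Foxa2 (exact interval 0 to 41.0%) and 20 of 89 without it (22.5%, interval 14.3 to 32.6%), a difference of -22.3 points. Aldh1a1 was detected in 1 of 7 and 13 of 89 (-3.05 points), Cdh1 in 6 of 7 and 79 of 89 (-2.54 points) and Sox9 at 5.08 points. Of 2 endothelial assays in the band, Cd34 passed 20 points and Eng was at 13.7, a median of 23.9 points against 2.28 over the 76 assays. Of 6 stromal assays, 2 were at least 20 points higher, Mcam and Tbx3, and 1 at least 20 points lower, Mme (neprilysin, at -20.8), with a median of 13.5 points. Of the 11 endothelial, stromal and immune markers, a median of 7 was detected in cells with Foxa2 (range 4 to 9, summed level 34.5 to 81.3) and 5 in cells without it (range 0 to 10, summed level 0 to 89.7). Single markers on these lists varied. Vim was detected in 1 of the 7 cells with Foxa2 and 6 of the 89 without it, Eng in 2 and 11, and Thy1 in 2 and 15. Pecam1 was detected in 7 and 86, Nt5e in 7 and 76, sma in 6 and 64, and Ptprc in 5 and 52. The part of other cell types in these counts was not tested.

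Because 6 of the 7 Foxa2 cells lay among the 32 cells without Hprt, the same genes were counted within those 32, after the values were seen. Foxa2 was found in 6 of 32 cells without Hprt (18.8%, interval 7.21 to 36.4%) and in 1 of 64 with it (1.56%, interval 0.04 to 8.40%). Among the cells without Hprt, Wnt7a was in 0 of 6 cells with Foxa2 and 3 of 26 without it, and Hopx in 0 of 6 and 5 of 26, so these genes were rare among cells without Hprt on both sides. Enpep was in 6 of 6 and 12 of 26, Cd34 in 5 of 6 and 9 of 26, Mcam in 3 of 6 and 2 of 26, and Tbx3 in 3 of 6 and 8 of 26. Sox9, in contrast, was found in 9 of the 32 cells without Hprt (28.1%, interval 13.7 to 46.7%) and 29 of the 64 with it (45.3%, interval 32.8 to 58.3%), intervals that overlap.

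Foxa2 cells were also counted along the numbering of the cells. Foxa2 was found in 0 of cells 1 to 24 (exact interval 0 to 14.2%), 1 of cells 25 to 48 and 2 of cells 49 to 72. In cells 73 to 96 it was found in 4 (interval 4.74 to 37.4%), and the first and last intervals overlap. Sox9 was found in 10, 10, 9 and 9 of 24. What the numbering stands for is not given in the labels, and its part was not tested.

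In the authors' deposited table of fold changes, relative to Gapdh and then to cell 1, the highest value of both genes belonged to cell 67, where neither was measured: 717392 for Foxa2 and 24.0 for Sox9. The missing Gapdh of that cell stands at 40 in the calculation. Cell 1 itself detected Sox9 (Ct 25.1) but not Foxa2 (Ct 40), so the Foxa2 folds of its 7 cells in the authors' deposited table, 167.7 to 2644, are relative to a fill value, and those of the 38 Sox9 cells, 4.16e-04 to 1, to a measured one. The folds of the 2 genes are therefore not on one scale. Leaving out cell 67, the highest fold of a cell that did not detect the gene in the authors' deposited table was 5.22 for Foxa2 and 1.74e-04 for Sox9, both below the lowest fold of a detecting cell.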

How the data were processed

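Ct values of 96 assays in 96 sorted cells were used. Per the labels' protocols, cells were lysed and preamplified with a one-step reverse transcription PCR kit and read with EvaGreen dye on a Fluidigm Biomark chip; threshold settings, primers and animals are not stated there. Per the file headers, the deposited Ct table (96 assays) is unnormalized, and 40 stands for no Ct. A second deposited table gives the authors' fold ratio, per the file headers relative to Gapdh and to cell 1; recomputing it from the Ct values gave the same folds to within 6.55e-06 on the log2 scale.

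Columns were matched to cells by number. Of 96 assays, 78 matched a RefSeq symbol or synonym (GRCm38.p6), 14 were named through a CD or protein name and 4 keep the file's name. The assays er and pr were read as Esr1 and Pgr, which the short names do not settle.

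Detection was a Ct below 28 and the level 28 minus Ct. Share differences were taken within 3 strata of the number of other assays detected (Foxa2, Sox9 and the assay itself left out), with Mantel-Haenszel weights, and a difference of 20 points was used as the call. No p-value was computed, because the cells are 1 sample. No cells were removed, doublets included.

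Named genes were the reference genes and Epcam, the 8 highest and 6 lowest differences for Sox9 and the 5 highest and 5 lowest for Foxa2 among assays in 10% to 90% of cells, the nearest assays by Jaccard index (5 and 3), the 5 highest and 3 lowest level correlations with Sox9, the gland list and the extremes of each other list. Of these, 1 assay is not reported here. Other names were chosen after their values were seen. Members, lists and tests were chosen with earlier results of these data known. Alternatives were Ct limits of 24 and 26, any recorded Ct, 6 cell filters, 2 or 5 strata, none, strata by Gapdh, and levels relative to Gapdh. Python 3.11.15, numpy 2.4.6, pandas 2.3.3, scipy 1.17.1 and matplotlib 3.10.9 were used.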

Additional observations from a re-analysis of the deposited data

How the results depend on the processing

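The alternatives gave 101 values of shares, mean levels and counts of assays: 18 moved, and the other 83 lay inside the counting interval, 1 SD or 1.5 times of the reported value. Sox9 was in 24.0% of cells at a Ct limit of 24, where 6 assays were at least 20 points higher with Sox9, in place of 2. That number was 4 with 2 strata, 1 with 5 strata and 12 without strata. Assays at least 20 points lower with Sox9 numbered 1 in cells with Epcam, 1 without the 10% of cells with the most assays and 4 in cells with Gapdh, actin and Hprt, in place of 0. In those last cells Foxa2 was found in 1.59%, at a level of 8.76 in its 1 cell, with 1 cell holding both genes and 26 assays at least 20 points higher with Foxa2. Assays at least 20 points lower with Foxa2 numbered 15 with 2 strata and 16 without the 10% of cells with the most assays, in place of 9. Levels relative to Gapdh (-9.82 for Foxa2, -10.73 for Sox9) and as log2 deposited folds (9.63 and -6.15) differ from 28 minus Ct by the construction of each scale.

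Of 312 differences of named assays, 4 past 20 points took the other sign: Pgr with Sox9 was -12.8 points with a Ct limit of 24, and, where 1 cell with Foxa2 was left among those with all reference genes, Cd55 and Insr were at 15.0 and Wnt7a at 10.0 points. Another 6 moved: Lgr5, Kit, Cd9 and Eng with Sox9, and Enpep and Hprt with Foxa2 (Hprt to 0, as all cells there detect it). The tolerance here was wide: the distance from the middle to the end of the exact interval on the share in cells with the member. It was 35.8 points for Mcam, Tbx3 and Cd55 with Foxa2 and 14.4 for Pgr with Sox9. Smaller shifts, such as that of Pgr from 21.7 to 10.3 points with a Ct limit of 26, did not count as moved. The cause of the change of sign for Pgr was not tested. No paired analysis was possible because all cells form 1 group. The 7 cells with Foxa2 and the lack of a known animal limit every statement on it.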
